A study of Mus musculus with 8 samples.

Results

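Grm2, Grm3, Grm5, Grm7 and Grm8 encode metabotropic glutamate receptors of the brain. They were taken by gene name from the FPKM values of the mouse cortex, where each name had 1 row, so the receptors described here are 5 of 13996 genes. All 5 passed the filter on low values, a mean of at least 1 FPKM and no FPKM of 0, which left 13982 genes for testing. The cortexes came from male C57BL/6 mice killed at 16 weeks of age. From 8 weeks of age, 4 mice (normal) received a conventional diet for 8 weeks and 4 mice (HFD) a diet enriched in fat (60% by weight) for the same time. Each mouse gave 1 stranded, paired-end library of total RNA depleted of rRNA. Nothing else than the diet is named as different between the groups, and neither the labels nor the methods say how the border of the cortex was cut. FPKM, the fragments per kilobase of transcript scaled to the mapped reads, keeps no read count, so the depth behind each value is unknown.

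Metabotropic glutamate receptors are G protein-coupled receptors that sense glutamate, the main excitatory transmitter of the cortex, and tune synapses over slower times than the ion channel receptors do. Group I, to which Grm5 belongs, couples to Gq and phospholipase C and sits mostly beside the postsynaptic density, tied there by Homer proteins. Group II (Grm2 and Grm3) and group III (Grm4, Grm6, Grm7 and Grm8) couple to Gi/o, lower cAMP and mostly restrain transmitter release from the presynaptic side. Grm3 is also made by astrocytes, and Grm7 stands out for its low affinity for glutamate and its place in the active zone of the presynapse.

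The libraries differed in the RNA of neighbouring tissues before any receptor is considered. Summed FPKM of striatal marker genes (13 of 14 in the values used here) lay between 307.2 and 543.9 in normal mice and between 120.3 and 130.3 in HFD mice, and 13 of 13 were called lower in HFD mice. Cerebellar marker genes (8 of 12) summed to 22.0, 260.7, 353.0 and 78.5 in normal mice 1 to 4 and to between 16.2 and 19.0 in HFD mice, with Gabra6 listed at 0 in HFD mouse 1. Thalamic markers (9 of 10) ranged from 50.1 to 171.5 in normal mice and from 31.5 to 37.7 in HFD mice, and markers of oligodendrocytes (10 of 10) from 2146 to 3537 and from 1482 to 2060. Markers of cortical projection neurons (12 of 12) were well expressed in every mouse, at 362.6 to 529.4 in normal mice and 562.2 to 689.0 in HFD mice, with 8 called higher and 1 lower. Normal mice 2 and 3 stood apart by their cerebellar and thalamic sums, so results are also given without them. Their removal left 2 normal mice, and it was chosen after seeing the data. It did not remove the tissue differences. Without them 13 of 13 striatal, 4 of 7 tested cerebellar and 7 of 10 oligodendrocyte markers were still called lower. Of the 12 markers of cortical projection neurons, 6 were still called higher. A call kept without these mice is therefore not free of such differences. In bulk tissue, fewer cells of a type and less RNA per cell cannot be told apart.

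Grm2 showed the largest rise of the 5 receptors in HFD mice, Grm7 and Grm8 also rose, and Grm3 and Grm5 did not pass the test. Thus 3 of 5 receptors were called higher at an adjusted p below 0.05, in a data set where 17.7% of all genes tested were called higher and 15.3% lower. No receptor of the 5 was called lower. Only Grm2 also exceeded the minimum change of 50%, which 4.23% of all genes did in this direction. For 3 of the 5 receptors every HFD mouse lay above every normal mouse, as for 17.2% of all genes tested. The median log2 fold change of the 5 receptors was 0.40, against 0.00311 for all genes tested. Summed markers of cortical projection neurons were also higher in HFD mice (562.2 to 689.0 FPKM) than in normal mice (362.6 to 529.4 FPKM). The normal mice stood in the same order for this sum as for Grm2, but the HFD mice did not. For Grm7 the order of the normal mice also differed from that of the sum. The part of cortical neuron RNA in the receptor rises was not tested. Differences were tested with limma on log2(FPKM + 0.1), a scale on which the change of genes with low expression is understated, with Benjamini-Hochberg adjustment over all genes tested.

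**Figure D1:**
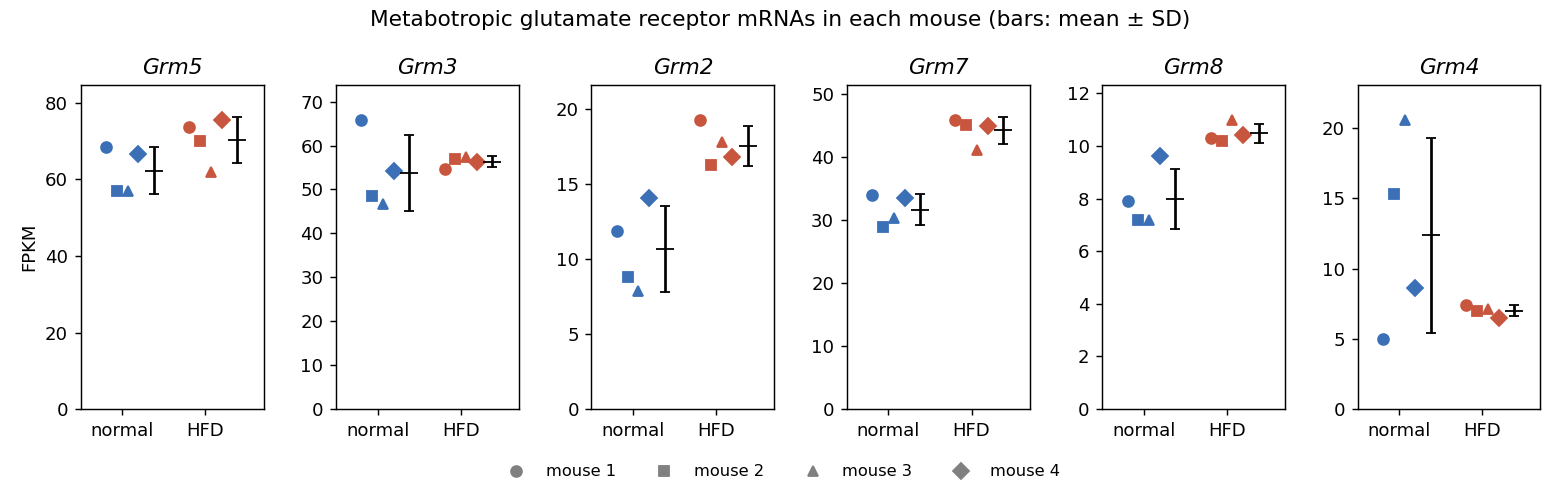
FPKM (vertical axis, from 0) of the 5 receptors and of Grm4 in each mouse, by diet, with 1 symbol shape per replicate number and bars for the mean ± SD of 4 mice. The HFD mice lie above all normal mice for Grm2, Grm7 and Grm8, and normal mice 2 and 3 stand high for Grm4.

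Of group I, Grm5, the main Gq-coupled receptor of cortical dendritic spines, was the most abundant receptor. It had 68.5, 57.0, 56.9 and 66.6 FPKM in normal mice 1 to 4 and 73.6, 70, 61.8 and 75.6 FPKM in HFD mice 1 to 4. The groups overlapped, because HFD mouse 3 lay below normal mice 1 and 4. The means were 62.3 ± 6.17 FPKM and 70.3 ± 6.09 FPKM (SD, n = 4 each). The log2 fold change was 0.18 (SE 0.08, limma adjusted p = 0.132), and the 95% interval of the fold ran from 0.992 to 1.28. It was 0.05 without normal mice 2 and 3 (adjusted p = 0.675).

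Of group II, Grm2, a presynaptic autoreceptor of glutamatergic terminals, had 11.9, 8.8, 7.9 and 14.1 FPKM in normal mice and 19.3, 16.3, 17.8 and 16.8 FPKM in HFD mice. Normal mice 2 and 3 were the lowest and every HFD mouse was above normal mouse 4, the highest of its diet. The mean rose from 10.7 ± 2.85 to 17.6 ± 1.32 FPKM (SD, n = 4 each), a fold of 1.68 with a 95% interval of 1.31 to 2.16. The log2 fold change was 0.75 (SE 0.16, limma adjusted p = 0.00792). Without normal mice 2 and 3 it was 0.43 (adjusted p = 0.0176), so the call was kept while the fold went below the minimum change of 50%.

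Grm3, the second group II receptor and the one shared by neurons and astrocytes, had 65.9, 48.6, 46.7 and 54.1 FPKM in normal mice and 54.6, 56.9, 57.5 and 56.2 FPKM in HFD mice. The HFD values lay within the range of the normal mice, and normal mouse 1 was the highest of all 8. The means were 53.8 ± 8.64 and 56.3 ± 1.25 FPKM (SD, n = 4 each), with a log2 fold change of 0.08 (SE 0.09, limma adjusted p = 0.556). Its 95% interval of the fold ran from 0.911 to 1.22, so a change of 50% in either direction lay outside it. Without normal mouse 1 the log2 fold change was 0.18 (adjusted p = 0.0433), and without normal mice 2 and 3 it was -0.08 (adjusted p = 0.458). Astrocyte markers (10 of 10) summed to 1294.5 to 1492.0 FPKM in normal mice and 1273.5 to 1352.6 FPKM in HFD mice, with 3 called higher and 3 lower.

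Of group III, Grm7, which damps release at the presynaptic active zone, had 34.0, 28.9, 30.3 and 33.4 FPKM in normal mice and 45.9, 45.1, 41.1 and 44.9 FPKM in HFD mice. The lowest HFD mouse was well above the highest normal mouse. The mean rose from 31.7 ± 2.45 to 44.3 ± 2.14 FPKM (SD, n = 4 each), with a 95% interval of the fold of 1.27 to 1.54. The log2 fold change was 0.48 (SE 0.06), with the lowest adjusted p of the 5 receptors (limma adjusted p = 0.00109), and it was 0.39 without normal mice 2 and 3 (adjusted p = 0.00588).

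Grm8, a presynaptic receptor with high affinity for glutamate, had the lowest level of the 5. It measured 7.9, 7.2, 7.2 and 9.6 FPKM in normal mice and 10.3, 10.2, 11.0 and 10.4 FPKM in HFD mice. The HFD mice lay close together, and all were above normal mouse 4. The mean rose from 7.98 ± 1.13 to 10.5 ± 0.359 FPKM (SD, n = 4 each), and the log2 fold change was 0.40 (SE 0.09, limma adjusted p = 0.00975). It was 0.26 without normal mice 2 and 3 and no longer passed (adjusted p = 0.0671).

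**Figure D2:**
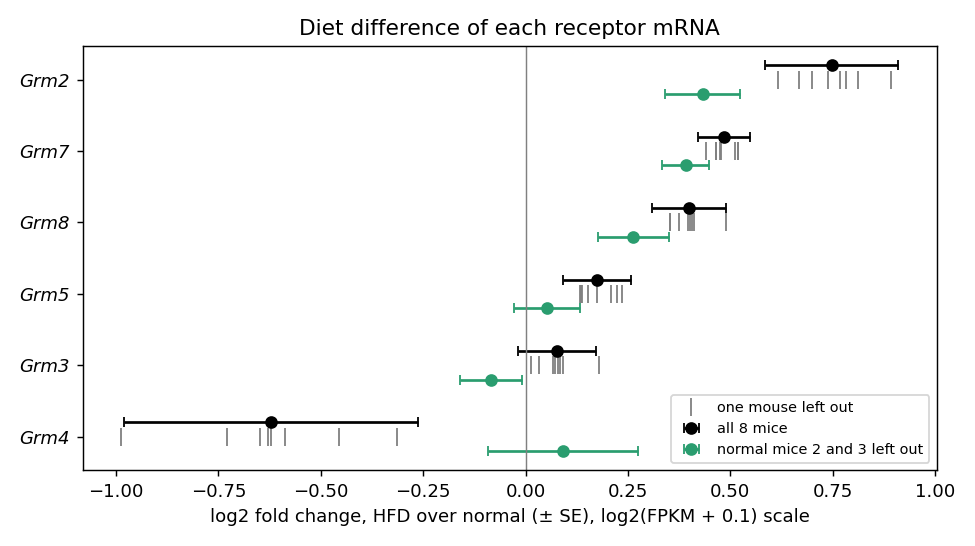
Log2 fold change of HFD over normal on the log2(FPKM + 0.1) scale (horizontal axis) for the 5 receptors and for Grm4, with black points for all 8 mice, green points without normal mice 2 and 3, bars for the SE and grey ticks for each mouse left out in turn. The green points of Grm2, Grm7, Grm8 and Grm5 lie nearer to 0 than the black ones, and those of Grm3 and Grm4 lie on the other side of 0.

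Of the group III genes outside the 5, Grm4 was measured and Grm6, the receptor of retinal ON bipolar cells, was not analysed here. Grm4, the group III receptor known for cerebellar granule cells, had 5.0, 15.3, 20.6 and 8.6 FPKM in normal mice and 7.4, 7.0, 7.1 and 6.5 FPKM in HFD mice, in the same order of normal mice as the cerebellar marker sums. Its log2 fold change was -0.62 (SE 0.36, limma adjusted p = 0.208), passed without normal mouse 1 (-0.99) and was 0.09 without normal mice 2 and 3 (adjusted p = 0.758). The part of cerebellar RNA in these values was not tested.

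Promoters are shown for the 3 receptors called higher, with that of Grm3 beside them, which did not pass the test. RefSeq promoters on GRCm38.p6, which span 250 bases before to 50 bases after a start, were given for 4 of the 5 receptors in 7 windows. For each receptor the window with the most CpG dinucleotides is printed. These are chr9:106656060-106656359 on the minus strand for Grm2, chr5:9725303-9725602 on the minus strand for Grm3, chr6:110645348-110645647 on the plus strand for Grm7 and chr6:28135097-28135396 on the minus strand for Grm8. Each is written 5′ to 3′ along its gene, with every GC box (GGGCGG, the motif bound by Sp1) on the printed strand in capitals.
Grm2: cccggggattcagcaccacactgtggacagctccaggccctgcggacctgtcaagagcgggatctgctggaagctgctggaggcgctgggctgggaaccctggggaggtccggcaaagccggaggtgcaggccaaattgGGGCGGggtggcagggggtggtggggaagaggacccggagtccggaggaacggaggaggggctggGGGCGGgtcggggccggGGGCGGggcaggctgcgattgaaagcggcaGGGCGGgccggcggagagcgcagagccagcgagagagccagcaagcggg
Grm3: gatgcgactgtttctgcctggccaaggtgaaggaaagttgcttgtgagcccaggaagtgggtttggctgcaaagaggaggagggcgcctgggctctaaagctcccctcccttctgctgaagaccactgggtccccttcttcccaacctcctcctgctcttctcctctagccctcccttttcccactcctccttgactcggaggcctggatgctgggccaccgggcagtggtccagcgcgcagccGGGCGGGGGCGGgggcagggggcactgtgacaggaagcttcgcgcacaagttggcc
Grm7: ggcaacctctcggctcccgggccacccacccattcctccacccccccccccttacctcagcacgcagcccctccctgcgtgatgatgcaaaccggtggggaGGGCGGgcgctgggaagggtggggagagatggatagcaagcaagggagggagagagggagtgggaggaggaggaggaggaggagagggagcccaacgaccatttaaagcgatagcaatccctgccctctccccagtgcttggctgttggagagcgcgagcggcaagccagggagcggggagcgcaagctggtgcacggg
Grm8: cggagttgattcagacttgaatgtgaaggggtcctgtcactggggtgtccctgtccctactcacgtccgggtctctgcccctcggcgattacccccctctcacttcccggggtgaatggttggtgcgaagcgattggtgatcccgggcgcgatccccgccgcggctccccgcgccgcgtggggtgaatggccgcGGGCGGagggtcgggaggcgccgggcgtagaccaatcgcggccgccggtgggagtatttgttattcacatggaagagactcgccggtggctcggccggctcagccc
In the printed windows the share of G and C was 72.0% in Grm2, 63.7% in Grm3, 66.7% in Grm7 and 67.0% in Grm8, against a median of 52.7% over 32851 promoters of 300 bases. They held 22, 11, 15 and 33 CpG dinucleotides in that order, against a median of 7. At least 20 CpG were held by 26.5% of all promoters. The printed windows of Grm7 and Grm8 were picked by their CpG, while the median and this share cover unpicked windows. GC boxes counted on both strands were 4 in Grm2, 2 in Grm3, 1 in Grm7 and 1 in Grm8. Of all promoters, 35.7% held at least 1 GC box and 5.49% held 4 or more. The TATA box (TATAAA) and the cAMP response element (TGACGTCA), which 13.6% and 1.79% of all promoters held, were in none of the 7 windows on either strand. The 3 windows that are not printed were less rich in G and C. One of Grm7 (chr6:110645262-110645561) had 61.0% G and C, 10 CpG and 1 GC box. Of Grm8, chr6:28134372-28134671 had 54.0% G and C and 10 CpG, and chr6:28126377-28126676 had 43.3% and 2 CpG, both with 0 GC boxes. Both the printed and the unprinted window of Grm7 lie within an antisense gene described further on. The unprinted window of Grm7 and the printed window of Grm3 lie wholly before the starts of their genes as GENCODE M21 annotates them.

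Levels of different genes can be set side by side in FPKM, which is given per length. In both diets the order of the means was Grm5, Grm3, Grm7, Grm2 and Grm8, and 4 of 4 mice of each diet kept this order. In normal mice the ranges of the neighbours Grm5 and Grm3 overlapped, as did those of Grm2 and Grm8, while in HFD mice no neighbours overlapped. Among all genes tested, 92.4% had a lower mean than Grm5, 90.4% than Grm3, 85.6% than Grm7, 61.0% than Grm2 and 48.2% than Grm8. The summed FPKM of the 5 receptors was 166 ± 19.7 in normal mice and 199 ± 6.89 in HFD mice (SD, n = 4 each). Of this sum, Grm5 made up 37.5 ± 0.781% in normal and 35.3 ± 1.90% in HFD mice, and Grm3 32.3 ± 1.98% and 28.4 ± 1.56%. The share of Grm7 was 19.1 ± 0.950% and 22.2 ± 0.459%, that of Grm2 6.35 ± 1.13% and 8.83 ± 0.703%, and that of Grm8 4.80 ± 0.491% and 5.28 ± 0.359%. The spread between mice of one diet was smaller in HFD than in normal mice for each receptor, with a coefficient of variation of 26.7% against 7.54% for Grm2, 16.1% against 2.22% for Grm3 and 14.2% against 3.43% for Grm8. That difference in spread was not tested.

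Whether one receptor changed more than another was tested on the ratio of both within a mouse, which any scaling of the whole library leaves untouched. The exact two-sided permutation test over 70 assignments of the mice can give no p below 0.0286, and the 10 pairs were adjusted together. In 6 of 10 pairs the diets did not overlap, and each of these had the smallest p (exact p = 0.0286, adjusted p = 0.0476). No pair could pass after adjustment alone, because the adjusted p depends on how many of the 10 pairs share the smallest p. Ratios that share a gene are also not independent of each other. Relative to Grm3, its group II partner, Grm2 was higher in HFD mice by 0.67 on the log2 scale (SE 0.15). It was also higher relative to Grm5, by 0.57 (SE 0.15), and relative to Grm8, by 0.35 (SE 0.12). The ratio of Grm5 to Grm7 was 0.91 to 1.01 in normal mice and 0.59 to 0.75 in HFD mice on the log2 scale, a difference of -0.31 (SE 0.04). Ratios of Grm3 to Grm7 and of Grm3 to Grm8 differed by -0.41 (SE 0.09) and -0.32 (SE 0.12).

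The other 4 ratios overlapped between the diets. Grm2 to Grm7 differed by 0.26 (SE 0.16, exact permutation, adjusted p = 0.179), Grm7 to Grm8 by 0.09 (SE 0.09, adjusted p = 0.429), Grm5 to Grm8 by -0.22 (SE 0.11, adjusted p = 0.122) and Grm3 to Grm5 by -0.10 (SE 0.09, adjusted p = 0.317). Among the 3 receptors that rose, the pair Grm2 and Grm8 passed and the others did not. With 1 mouse left out no pair can pass after adjustment, so those fits give values only. Without normal mice 2 and 3 the differences were 0.52 for Grm2 to Grm3, 0.38 for Grm2 to Grm5, 0.17 for Grm2 to Grm8 and -0.34 for Grm5 to Grm7.

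**Figure D3:**
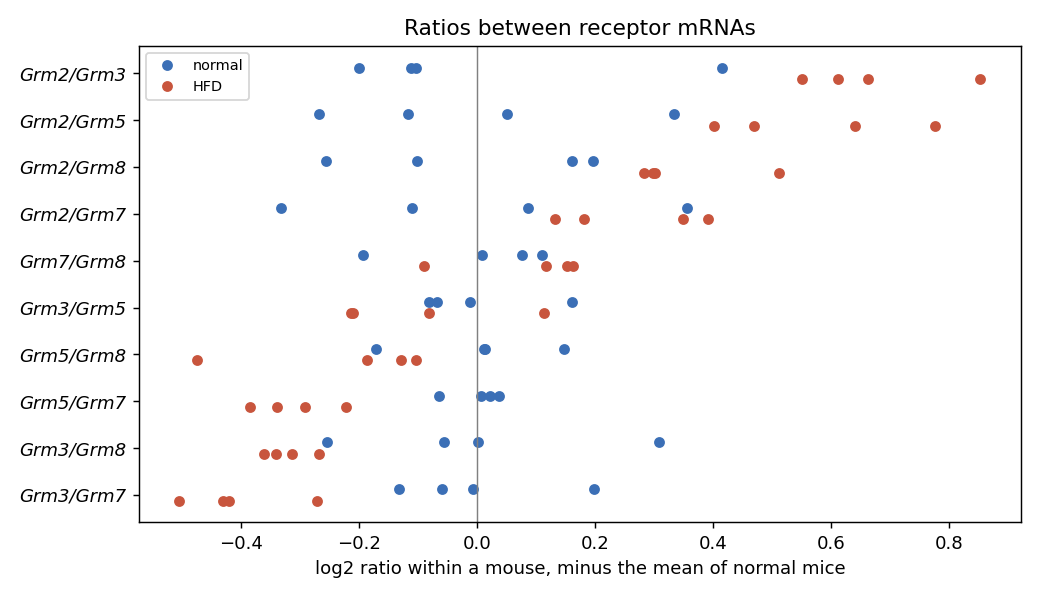
Within-mouse log2 ratio of each pair of receptors minus the mean of normal mice (horizontal axis), with 1 point per mouse, blue for normal and red for HFD. The colours separate fully in 6 of 10 pairs.

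Genes that act around the receptors moved in both directions, as did all genes tested, of which 17.7% were called higher and 15.3% lower. Of 25 genes of Gq signalling and the group I scaffold tested, 7 were called higher, 4 lower and 14 did not pass, with a median log2 fold change of 0.11. Shank1, a scaffold of the postsynaptic density that binds Homer, rose from 16.0 ± 3.11 to 28.0 ± 1.80 FPKM (log2 fold change 0.82, SE 0.12, limma adjusted p = 0.00173). The part of cortical neuron RNA in this rise was not tested. Homer1, the scaffold of Grm5, had 95.4 ± 16.5 and 102.6 ± 7.10 FPKM (0.12, adjusted p = 0.458), and Gnaq, the Gq alpha subunit, 28.7 ± 1.57 and 31.6 ± 0.888 FPKM (0.14, adjusted p = 0.0564).

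The largest falls of that list were in Homer3 and Plcb4, which were highest in normal mice 2 and 3. Homer3, a Homer protein with high levels in cerebellar Purkinje cells, had 6.4, 21.3, 25.1 and 9.2 FPKM in normal mice and 2.4 to 3.0 FPKM in HFD mice (-2.27, SE 0.38, limma adjusted p = 0.00274). Plcb4, a phospholipase C of the same cells and of the thalamus, had 24.0, 39.9, 39.5 and 24.2 FPKM in normal mice and 14.2 to 19.2 FPKM in HFD mice (-0.97, SE 0.19, adjusted p = 0.00457). Both falls kept their call without normal mice 2 and 3, at -1.48 for Homer3 (adjusted p = 0.00258) and -0.61 for Plcb4 (adjusted p = 0.0123), and normal mice 1 and 4 also lay above every HFD mouse. Those 2 mice also exceeded every HFD mouse in cerebellar marker sum (22.0 and 78.5 against 16.2 to 19.0 FPKM). Their thalamic sums were 50.1 and 64.7 FPKM, against 31.5 to 37.7 FPKM in HFD mice. The part of cerebellar and thalamic RNA in these falls was not tested. The list had 4 genes higher and 4 lower once normal mice 2 and 3 were left out.

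In Gi/o signalling, the arm used by Grm2, Grm3, Grm7 and Grm8, 11 of 24 genes were called higher, 5 lower and 8 did not pass (median 0.16, and 8 higher and 5 lower without normal mice 2 and 3). The shares over all genes tested, with all 8 mice, were 17.7% higher and 15.3% lower. Kcnj6, a subunit of the potassium channels opened by Gi/o beta-gamma subunits, rose from 19.0 ± 2.30 to 26.6 ± 1.46 FPKM (log2 fold change 0.49, SE 0.09, limma adjusted p = 0.00334). The 3 largest falls were in Gng7, a G protein gamma subunit, from 25.4 ± 4.78 to 12.7 ± 0.597 FPKM (-0.98, SE 0.11), Gnb4, a beta subunit, from 13.6 ± 0.492 to 8.08 ± 1.13 FPKM (-0.76, SE 0.09), and Adcy5, an adenylyl cyclase, from 36.8 ± 4.57 to 22.8 ± 0.913 FPKM (-0.68, SE 0.08). Gng7 and Adcy5 are also in the striatal marker list, whose sum fell in HFD mice. The part of striatal RNA in these falls, and of cortical neuron RNA in the rise of Kcnj6, was not tested.

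The partners of the group III receptors included 4 of 9 genes called higher, 1 lower and 4 that did not pass (median 0.13). Of all genes tested, 17.7% were called higher and 15.3% lower. Elfn1 and Elfn2, postsynaptic proteins that bind group III receptors across the synapse, both rose in HFD mice, as did Grm7. Elfn1 had 4.8, 3.8, 4.7 and 5.6 FPKM in normal mice and 6.6, 7.0, 6.9 and 6.9 FPKM in HFD mice (log2 fold change 0.54, SE 0.10, limma adjusted p = 0.00501). Elfn2 had 17.3, 15.8, 13.6 and 18.1 FPKM in normal mice and 23.2, 23.9, 24.6 and 22.6 FPKM in HFD mice (0.55, SE 0.08, adjusted p = 0.00186). For both, every HFD mouse was above every normal mouse, as for 17.2% of all genes tested. The sum of cortical projection neuron markers was also higher in HFD mice, and its part in these rises was not tested. Stx1a, a syntaxin of the presynaptic membrane, passed only narrowly (0.49, SE 0.17, adjusted p = 0.0465) and kept its call in 2 of 8 fits with 1 mouse left out.

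Among genes of receptor desensitization, 3 of 10 were called higher and 2 lower, against 17.7% and 15.3% of all genes tested. Adrbk2, a G protein-coupled receptor kinase, rose from 20.7 ± 0.316 to 30.9 ± 1.33 FPKM (log2 fold change 0.57, SE 0.04, limma adjusted p = 0.000140). Rgs4, which speeds up the switching off of Gq and Gi/o, fell from 191.9 ± 44.4 to 122.7 ± 12.7 FPKM (-0.62, SE 0.15, adjusted p = 0.0113). Grk5 (-0.32, adjusted p = 0.0288) and Adrbk1 (0.20, adjusted p = 0.0329), both receptor kinases, each kept the call in 2 of 8 fits with 1 mouse left out.

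Of the genes that supply and clear glutamate, 2 of 16 were called higher, 1 lower and 13 did not pass (median -0.00604). The shares over all genes tested were 17.7% higher and 15.3% lower. Slc17a7, the vesicular glutamate transporter of cortical projection neurons and also in that marker list, rose from 258.6 ± 52.6 to 358.8 ± 30.9 FPKM (log2 fold change 0.49, SE 0.13, limma adjusted p = 0.0193) and lost the call without normal mouse 2 or HFD mouse 3. Slc1a2, the main glial glutamate transporter, rose from 336.7 ± 38.8 to 399.2 ± 18.1 FPKM (0.25, SE 0.08, adjusted p = 0.0394) and kept the call in 3 of 8 fits with 1 mouse left out. Slc38a3, a glutamine transporter, fell from 22.0 ± 0.998 to 19.0 ± 1.00 FPKM (-0.21, SE 0.05, adjusted p = 0.0156). None of the 16 was higher and 1 was lower without normal mice 2 and 3.

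NAAG, a dipeptide of N-acetylaspartate and glutamate, is an agonist of Grm3. Of 5 genes of its metabolism, none was called higher and 1 lower (median -0.12), against 17.7% and 15.3% of all genes tested. That one was Aspa, the aspartoacylase of oligodendrocytes, which fell from 16.5 ± 2.44 to 9.80 ± 1.01 FPKM (log2 fold change -0.74, SE 0.11, limma adjusted p = 0.00198), beside the fall of 10 of 10 oligodendrocyte markers, whose part in it was not tested. Folh1, the peptidase that splits NAAG, had 2.53 ± 0.670 and 2.28 ± 0.330 FPKM (-0.12, SE 0.19, adjusted p = 0.650).

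**Figure D4:**
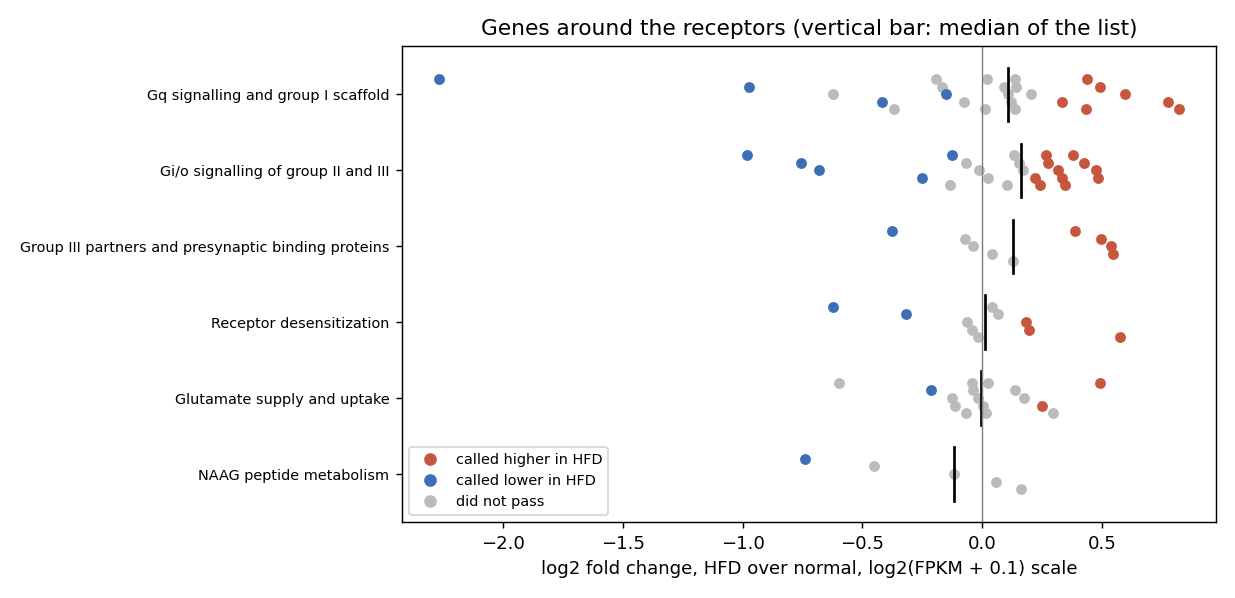
Log2 fold change of HFD over normal (horizontal axis, log2(FPKM + 0.1) scale) for each gene of the lists around the receptors, red where called higher, blue where called lower and grey where the test was not passed, with a vertical bar at the median of the list. The Gq and Gi/o lists spread to both sides of 0, and the leftmost point is Homer3.

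On GRCm38, Grm2 lies on chr9:106643095-106656082 (minus strand), Grm3 on chr5:9485541-9725170 (minus strand), Grm5 on chr7:87584168-88134907 (plus strand), Grm7 on chr6:110645581-111567230 (plus strand) and Grm8 on chr6:27275119-28135178 (minus strand), as GENCODE M21 annotates them. Grm2 is the shortest of the 5 genes at 12988 bp, and Grm7 the longest at 921650 bp. Within the introns of Grm5, on its own strand, the annotation places 4 measured genes of the class TEC, putative genes that still await experimental evidence. They were singled out after their values had been seen. All 4 were called higher in HFD mice although Grm5 itself did not pass. Their summed FPKM was 7.3, 6.3, 8.0 and 8.2 in normal mice and 14.2, 15.2, 10.3 and 16.3 in HFD mice, a rise from 7.45 ± 0.858 to 14.0 ± 2.61 (SD, n = 4 each), with no overlap between the diets.

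The TEC genes lie at chr7:87772567-87774392 (RP24-358B4.1), chr7:87890749-87891464 (RP23-338L5.1), chr7:88082813-88084803 (RP23-220I5.1) and chr7:88119158-88122400 (RP23-220I5.2). RP23-220I5.1 rose from 2.40 ± 0.294 to 4.65 ± 0.843 FPKM (log2 fold change 0.91, SE 0.15, limma adjusted p = 0.00238), and RP23-220I5.2 from 2.70 ± 0.374 to 4.65 ± 0.640 FPKM (0.76, SE 0.13, adjusted p = 0.00320). RP24-358B4.1 (0.91, SE 0.20, adjusted p = 0.00806) and RP23-338L5.1 (0.97, SE 0.29, adjusted p = 0.0287) had lower levels, near 1 FPKM in normal mice, where the rounding to 0.1 limits the precision. RP23-338L5.1 overlapped between the diets, with HFD mouse 3 at 1.7 FPKM below normal mouse 3 at 2.3 FPKM, and kept its call in 2 of 8 fits with 1 mouse left out. HFD mouse 3, which had the lowest Grm5 of its diet, also had the lowest sum of the TEC genes. Within a mouse, the log2 ratio of this sum to Grm5 was higher in HFD mice by 0.72 (SE 0.13), a description with no test, since these genes were chosen by their values.

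Such rises were common in this class, in which 245 of 480 TEC genes tested (51.0%) were called higher and 5 lower, with a median log2 fold change of 0.49, while 16.5% of protein-coding genes were called higher. Whether reads of unspliced Grm5 RNA count toward these genes was not tested. Without normal mice 2 and 3, RP24-358B4.1 no longer passed (0.74, adjusted p = 0.0575) and the other three did. An antisense gene that overlaps the start of Grm7 by 336 bp had 1.33 ± 0.287 and 1.43 ± 0.263 FPKM (adjusted p = 0.689), and another antisense gene, not analysed here, overlaps the end of Grm2 by 470 bp. The libraries keep strand, but the sources used here do not say whether the counting used it, so reads of overlapping genes may be shared.

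**Figure D5:**
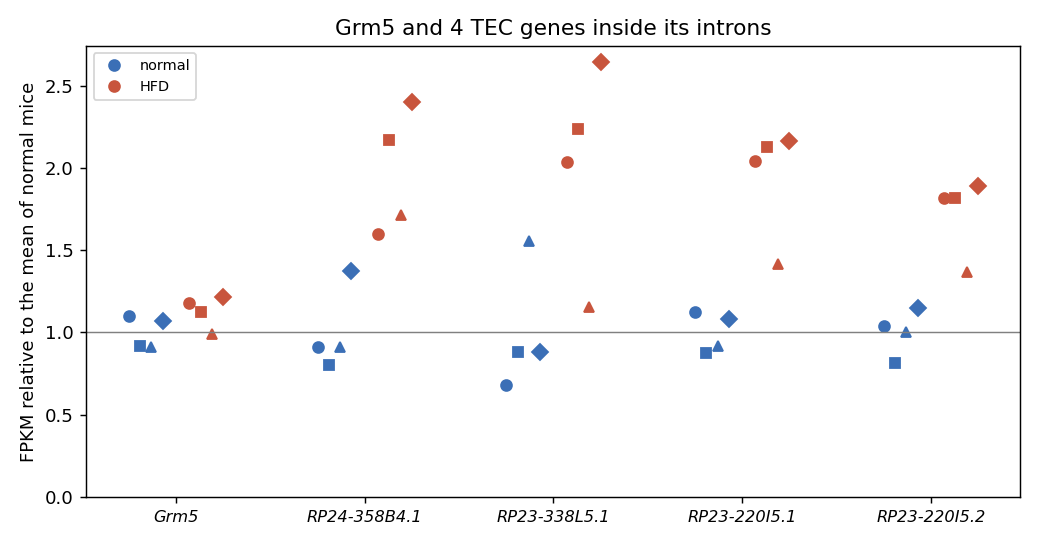
FPKM of Grm5 and of the 4 TEC genes inside its introns, each divided by its mean in normal mice (vertical axis, from 0), with circles, squares, triangles and diamonds for mice 1 to 4 of each diet. The red points of HFD mice stand higher above 1 for the TEC genes than for Grm5, and the triangle of HFD mouse 3 is the lowest of its diet for 4 of the 5 genes.

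Genes whose levels followed a receptor from mouse to mouse were sought with the diet means removed, over 8 mice and 9638 genes with at least 5 FPKM. These correlations are descriptions, since the mice share library effects and the named genes are the highest of 9638 values over only 8 mice. High values can arise by such a search alone. Closest to Grm2 were Mcph1 (r = 0.995), Scamp5 (r = 0.988) and Ttc7b (r = 0.986), and closest to Grm3 were Omg (r = 0.995), Cap1 and Ufd1l (r = 0.968 each). Grm5 was followed by Chid1 and Ephx2 (r = 0.985 and 0.984) and AC124713.2 (r = 0.974), Grm7 by Nkain2 (r = 0.977), Ptprn2 (r = 0.975) and Acss1 (r = 0.967), and Grm8 by Sept3 (r = 0.979), RP23-321M22.3 (r = 0.976) and Cmip (r = 0.973). Within the family, Grm5 and Grm7 had r = 0.935, and Grm2 and Grm8 had r = 0.874. Grm3 and Grm4 had r = -0.969, a value that contains the gap between normal mice 2 and 3 and the other normal mice. Each of the 5 receptors was lower in normal mice 2 and 3 than in the other normal mice, so this gap also enters the other correlations.

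Genes that followed a receptor between mice had unlike differences between the diets. Ptprn2, a protein of dense-core vesicles, rose from 101.1 ± 8.54 to 132.4 ± 5.53 FPKM (log2 fold change 0.39, SE 0.06, limma adjusted p = 0.00248), and Cmip from 42.7 ± 6.54 to 65.8 ± 3.27 FPKM (0.63, SE 0.09, adjusted p = 0.00176). Nkain2, the closest to Grm7, had 21.4 ± 4.31 and 23.0 ± 2.30 FPKM (0.13, adjusted p = 0.501). Omg, a myelin glycoprotein and the closest to Grm3, had 51.8 ± 5.74 and 48.2 ± 0.616 FPKM (-0.10, adjusted p = 0.315).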

How the data were processed

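RNA sequencing values of 8 mouse cortexes, 4 per diet, were analysed. The authors checked the reads with FastQC, removed poor sequence with Trimmomatic, mapped to mm10 by STAR and obtained FPKM from Cuffnorm on the GENCODE M17 basic annotation (GRCm38.p6), and deposited the FPKM values rounded to 0.1. Which versions of the tools were run is not given in the sources. Their second pipeline (Salmon and edgeR) was not used here. FPKM of 0.1 steps limit low values, and the depth per mouse is unknown (sums of FPKM 562430 to 639140).

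From these values, log2(FPKM + 0.1) of genes with a mean of at least 1 FPKM and no 0 was compared between diets with limma 3.58.1 in R 4.3.3 (variance trend, two-sided, Benjamini-Hochberg adjustment over 13982 genes). A gene was called at an adjusted p below 0.05, and a second rule also asked for over 50% change (1.5-fold). The study tested FPKM gene by gene in its first pipeline, and limma took the place of that test because of 4 mice per diet. Ratios used exact permutation tests in Python 3.11.15 (numpy 2.4.6, pandas 2.3.3, scipy 1.17.1, with matplotlib 3.10.9 for plots). p-values set the difference between the diets against the spread between mice. The fit was checked on simulated data. Positions came from GENCODE M21 (GRCm38) and promoters from RefSeq, with a count of each motif on both strands.

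Named genes were the receptors, up to 4 called genes with the largest change per list around them, 6 fixed genes (Homer1, Gnaq, Elfn1, Elfn2, Folh1 and Slc1a2) and the 3 genes most like each receptor. Results of some genes that this rule names are not reported here. The receptors and lists were chosen with earlier results of these data known. List genes were matched by symbol, and 2 marker genes by identifier. Alternatives were an added constant of 0.5 or 1, no filter or a mean of at least 5 FPKM, the replicate number as a block, quantile normalization, rescaling by median ratios, a fit with no variance trend and each mouse left out.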

Additional observations from a re-analysis of the deposited data

Results flagged for a closer look

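Single mice far from the other 3 of their diet were sought in 98 groups of 4 mice with Dixon's test at the 95% level, and 5 groups held one, where chance gives about 1 in 20. HFD mouse 3 had 3.4 FPKM of RP23-220I5.1 and 3.7 FPKM of RP23-220I5.2, the TEC genes inside Grm5, below 4.9 to 5.2 and 4.9 to 5.1 FPKM in the other HFD mice. The same mouse had the lowest Grm5 of its diet, at 61.8 FPKM, the lowest cerebellar marker sum, at 16.2 FPKM, and the highest oligodendrocyte marker sum, at 2059.5 FPKM, against 1482.2 to 1541.0 FPKM. HFD mouse 4 had a choroid plexus marker sum of 950.3 FPKM, against 23.1 to 79.4 FPKM in the other HFD mice. Its values of the 5 receptors stood within 1 SD of the mean of its diet.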

How the results depend on the processing

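Grm2 and Grm7 kept their direction and call under every alternative run. Leaving out normal mice 2 and 3, chosen after seeing the data, moved the calls over all genes from 2480 higher and 2146 lower to 1528 and 1215. The call of Grm8 was lost (0.263). Signs turned for Grm3 (-0.085), Grm4 (0.0905), Homer1 (-0.0311), Folh1 (0.202) and Nkain2 (-0.116), none of which had passed. That fit also held fewer mice, and the cause of these shifts was not tested. With each mouse left out in turn, calls ran from 1804 to 2476 higher and from 1475 to 2143 lower, and 3 to 4 of the 5 receptors were called. The log2 fold change ran from 0.616 to 0.892 for Grm2, 0.0139 to 0.179 for Grm3 (called without normal mouse 1), 0.134 to 0.235 for Grm5, 0.442 to 0.520 for Grm7 and 0.353 to 0.490 for Grm8. It ran from -0.00521 to 0.204 for Homer1, -0.238 to 0.00331 for Folh1 and -0.0126 to 0.224 for the antisense gene at Grm7, with signs turned without normal mouse 3 (Homer1 and Folh1) and without normal mouse 2 or HFD mouse 2 (antisense gene). Mice with the same number did not deviate together (r = -0.0382, -0.0275, -0.109 and -0.0717). The labels do not say whether the number stands for a pairing or a batch, and the main fit did not use it. With the replicate number as a block, 1840 genes were higher and 1550 lower, and adjusted p was 0.0171 for Grm2, 0.577 for Grm3, 0.0535 for Grm5, 0.00775 for Grm7 and 0.0267 for Grm8. Low FPKM values near 1 are limited by rounding.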
